A study of Rattus norvegicus with 5 samples.

Results

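Gad1, Gad2 and Slc32a1 encode the proteins that make the inhibitory transmitter GABA and load it into synaptic vesicles. These 3 genes were examined among the 14815 genes present in all 4 deposited comparisons. The genes were chosen by name, as the rows ENSRNOG00000000007 (Gad1), ENSRNOG00000018200 (Gad2) and ENSRNOG00000015393 (Slc32a1), after their deposited fold changes had been seen. Their fold changes and p-values are therefore given as a description and carry no test of a question posed beforehand. The tables hold Ensembl identifiers only. The pairing of these 3 identifiers with gene symbols came with the choice of the genes and was not checked against an annotation.

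The material was primary cortical neurons of the rat, taken at embryonic day 18 and kept for 21 days in vitro. The 5 groups were a control, called GFP (green fluorescent protein) in the tables, and neurons with a short hairpin RNA (shRNA) against Ehmt1, Smarcb1, Mll3 or Mbd5, each labelled as 1 sample. An shRNA lowers a transcript by RNA interference. Ehmt1 and Mll3 (also called Kmt2c) are histone methyltransferases, Smarcb1 is a subunit of a chromatin remodelling complex, and Mbd5 is a protein with a methyl-CpG-binding domain. What the control construct was, how many hairpins were used per gene, how they were delivered and how many libraries stand behind each comparison are not given in the sources used here. Each table gives 1 mean and 1 fold change per gene and no value of a single library, so the spread between cultures is seen only through the standard error (SE) that the authors deposited. The targeted transcripts, markers of other cell types and the other genes of the GABA pathway were not analysed here, because their identifiers were not paired with names. The label of cortical neurons was therefore not checked against markers.

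GABA is made from glutamate in a single step by glutamate decarboxylase, an enzyme that needs pyridoxal phosphate. Gad1 and Gad2 encode its separate forms: the Gad1 product is spread through the cell and makes much of the basal GABA, and the Gad2 product is concentrated at nerve terminals. Slc32a1 encodes the vesicular transporter that moves GABA, and glycine, from the cytosol into synaptic vesicles. In the cortex these genes are used together by interneurons, a minority of the neurons, and serve as their common markers. In RNA from a whole culture, fewer GABA-producing cells and less of these transcripts per cell cannot be told apart.

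The promoters are shown because the 3 genes stood close together in all 4 comparisons. They were read from RefSeq sequence of the rat build GRCr8, on which all 3 genes lie on the plus strand. The deposited tables were made on another build, Rnor_6.0, per the submitters' processing notes. All 3 symbols were found in the promoter table, whose windows run from 250 bases before to 50 bases after a start site. Only bases before the first annotated transcript are printed, which for Gad1 leaves the first 58 bases of its window. Capitals mark the matches to 4 motifs: the TATA box (TATAAA), the CCAAT box (CCAAT), the GC box (GGGCGG) and the half-site of the cyclic AMP response element (TGACG), on either strand. The Gad1 stretch is chr3:75777202-75777259, the Gad2 stretch chr17:89671468-89671717 and the Slc32a1 stretch chr3:167686995-167687244.
Gad1: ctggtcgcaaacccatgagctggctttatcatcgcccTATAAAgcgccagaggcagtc
Gad2: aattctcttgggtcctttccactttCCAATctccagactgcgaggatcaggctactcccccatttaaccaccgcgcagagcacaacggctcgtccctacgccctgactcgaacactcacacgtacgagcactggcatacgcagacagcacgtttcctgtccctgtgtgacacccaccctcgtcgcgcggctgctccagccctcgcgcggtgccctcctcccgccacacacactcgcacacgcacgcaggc
Slc32a1: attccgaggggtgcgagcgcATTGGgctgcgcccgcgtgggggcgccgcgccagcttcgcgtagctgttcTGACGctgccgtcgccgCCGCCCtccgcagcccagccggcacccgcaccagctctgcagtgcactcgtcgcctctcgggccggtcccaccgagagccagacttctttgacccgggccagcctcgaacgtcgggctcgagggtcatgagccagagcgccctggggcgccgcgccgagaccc

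All 3 windows were rich in G and C. The full 300-base window was 67.7% G and C for Gad1, 63.7% for Gad2 and 73.7% for Slc32a1, where the median of 33469 rat windows was 51.7%. It held 26 CpG dinucleotides for Gad1, 29 for Gad2 and 42 for Slc32a1, against a median of 7 over all windows. For Gad1, 192 of the 250 bases before the start site lie inside a longer annotated transcript, and for Gad2 and Slc32a1 0 do. The Gad1 values are therefore mostly of sequence within a transcript and are not like for like with the others. No motif of the 7 searched was found in all 3 windows. The TATA box was found in the Gad1 window only of the 3, and 14.2% of all windows hold it. The CCAAT box was found once each in the Gad2 and Slc32a1 windows and is held by 37.5% of all windows. The GC box was found once each for Gad1 and Slc32a1, on the minus strand, and is held by 33.1% of all windows. The Gad1 match lies within the longer transcript. The half-site TGACG was found at 2 places for Slc32a1 and is held by 21.2% of all windows. An E-box (CANNTG), held by 72.1% of windows, was found once for Gad1, also within the longer transcript. The full cyclic AMP response element (TGACGTCA), which contains the half-site, and the homeodomain core TAATTA were not found in these windows, and 1.83% and 5.36% of all windows hold them. These are matches of letters and not measured binding sites.

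All 3 genes fell with Mll3 shRNA, to between 16.01% and 20.9% of their control level, and with Smarcb1 shRNA, to between 22.9% and 29.1%. With Mbd5 shRNA Gad1 fell to 49.3% and Gad2 to 55.3%, while Slc32a1, at 68.9%, did not pass the threshold. With Ehmt1 shRNA the 3 genes stood at 88.7% to 101% of control and none passed it. A gene was called lower where the authors' deposited table gave it an adjusted p under 0.05 and its fold change, read as knockdown over control, was negative. The number of the 3 genes called lower in the authors' deposited tables was 3 for Mll3, 3 for Smarcb1, 2 for Mbd5 and 0 for Ehmt1, and none was called higher. Of all genes for which the authors' deposited tables give an adjusted p, 8.34% were called lower for Mll3, 8.39% for Smarcb1, 2.68% for Mbd5 and 0.966% for Ehmt1. Since the genes were chosen with these fold changes known, nothing is read from the difference between those counts and shares. The median log2 fold change of the 3 genes was -2.54 for Mll3, -1.87 for Smarcb1, -0.85 for Mbd5 and -0.025 for Ehmt1, beside medians over all genes of 0.026, 0.010, 0.00067 and -0.010.

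**Figure D1:**
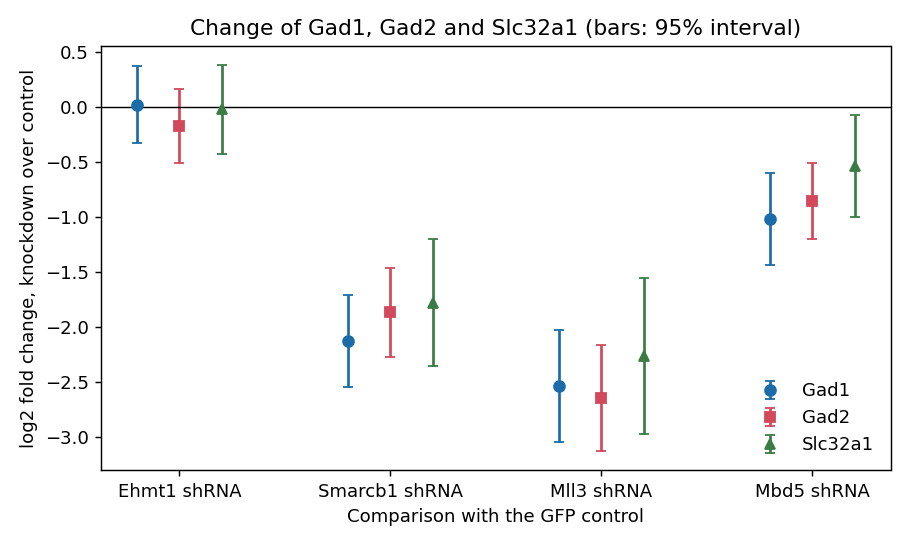
Log2 fold change of Gad1 (circles), Gad2 (squares) and Slc32a1 (triangles), knockdown over control, in the 4 comparisons; bars are 95% intervals made from the deposited standard error, and the deposited signs of Smarcb1, Mll3 and Mbd5 are turned. All 3 genes lie between -2.64 and -2.26 for Mll3 and between -0.17 and 0.018 for Ehmt1.

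The direction of the deposited values is not stated and was read from the tables. If control and knockdown weigh equally in a mean, the control level follows from that mean and its fold change, and the control is by name common to the 4 tables. Of 16 readings of the 4 signs, the one used here gave control levels that differed least between tables over 6648 genes, with an SD of 0.026 on the log2 scale, against 0.14 for the next. Under it a positive deposited value means more in the knockdown for Ehmt1 and more in the control in the other 3 tables. Every fold change in the text is given as knockdown over control, so the signs deposited for Smarcb1, Mll3 and Mbd5 are turned round. With each table scaled to a common level, the 4 implied control levels of Gad1 lay between 967 and 1005 normalized counts, those of Gad2 between 1434 and 1457, and those of Slc32a1 between 333 and 346. The signs were chosen for such agreement and the scaling adds to it, so these narrow ranges lend the reading no separate support. By name these are levels of the same control, so their range does not measure the spread between cultures.

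Gad1 had a mean normalized count, over control and knockdown libraries together, of 579 in the authors' deposited table for Mll3, 626 for Smarcb1, 804 for Mbd5 and 877 for Ehmt1. On the common scale its implied knockdown level was 1018 normalized counts for Ehmt1, 476 for Mbd5, 226 for Smarcb1 and 170 for Mll3. These levels are not judged against the range of the implied control levels, which holds no spread between cultures. Read as knockdown over control, the log2 fold change of Gad1 was -2.54 for Mll3 (2.54 before the turn of sign in the authors' deposited table, SE 0.26, adjusted p-value 2.72e-19), which leaves 17.2% of the control level (95% interval 12.1 to 24.5). For Smarcb1 it was -2.12 (2.12 in the authors' deposited table, SE 0.21, adjusted p-value 1.73e-20), or 22.9% of control (17.2 to 30.6). For Mbd5 it was -1.02 (1.02 in the authors' deposited table, SE 0.21, adjusted p-value 0.000267), or 49.3% of control (36.9 to 65.7). For Ehmt1 it was 0.018 in the authors' deposited table (SE 0.18, adjusted p-value 0.995), or 101% of control (79.4 to 129). The intervals of Smarcb1 and Mll3 overlapped, and every other pair of knockdowns had separate intervals for Gad1.

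Gad2, the terminal form of the enzyme, followed the same order. Its mean normalized count was 838 in the authors' deposited table for Mll3, 948 for Smarcb1, 1240 for Mbd5 and 1192 for Ehmt1. Its implied knockdown level on the common scale was 1292 normalized counts for Ehmt1, 793 for Mbd5, 394 for Smarcb1 and 231 for Mll3. The fall was called for Mll3, with a log2 fold change, knockdown over control, of -2.64 (2.64 in the authors' deposited table, SE 0.25, adjusted p-value 1.71e-23), or 16.01% of control (95% interval 11.5 to 22.4). It was called for Smarcb1 with -1.87 (1.87 in the authors' deposited table, SE 0.21, adjusted p-value 3.75e-17), or 27.4% of control (20.7 to 36.2). It was called for Mbd5 with -0.85 (0.85 in the authors' deposited table, SE 0.18, adjusted p-value 0.000219), or 55.3% of control (43.6 to 70.3). For Ehmt1 the value in the authors' deposited table was -0.17 (SE 0.17, adjusted p-value 0.883), or 88.7% of control (70.2 to 112). The Gad2 intervals of Ehmt1 and Mbd5 met at their edges, from -0.51 to 0.16 and from -1.20 to -0.51 on the log2 scale, and those of Smarcb1 and Mll3 overlapped too.

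Slc32a1, the vesicular transporter, was covered by fewer counts, and its standard error was the largest of the 3 genes in each table. Its mean normalized count was 202 in the authors' deposited table for Mll3, 222 for Smarcb1, 315 for Mbd5 and 298 for Ehmt1. Its implied knockdown level on the common scale was 340 normalized counts for Ehmt1, 231 for Mbd5, 97.1 for Smarcb1 and 69.9 for Mll3. Its log2 fold change, knockdown over control, was -2.26 for Mll3 (2.26 in the authors' deposited table, SE 0.36, adjusted p-value 4.40e-08), or 20.9% of control (95% interval 12.8 to 34.1). For Smarcb1 it was -1.78 (1.78 in the authors' deposited table, SE 0.30, adjusted p-value 1.05e-07), or 29.1% of control (19.5 to 43.5). For Mbd5 it was -0.54 (0.54 in the authors' deposited table, SE 0.24, unadjusted p-value 0.0227), or 68.9% of control (49.95 to 94.9), and with an adjusted p-value of 0.222 it was not called. For Ehmt1 it was -0.025 in the authors' deposited table (SE 0.20, adjusted p-value 0.992), or 98.3% of control (74.4 to 130). The Slc32a1 intervals of Ehmt1 and Mbd5 overlapped, as did those of Smarcb1 and Mll3.

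**Figure D2:**
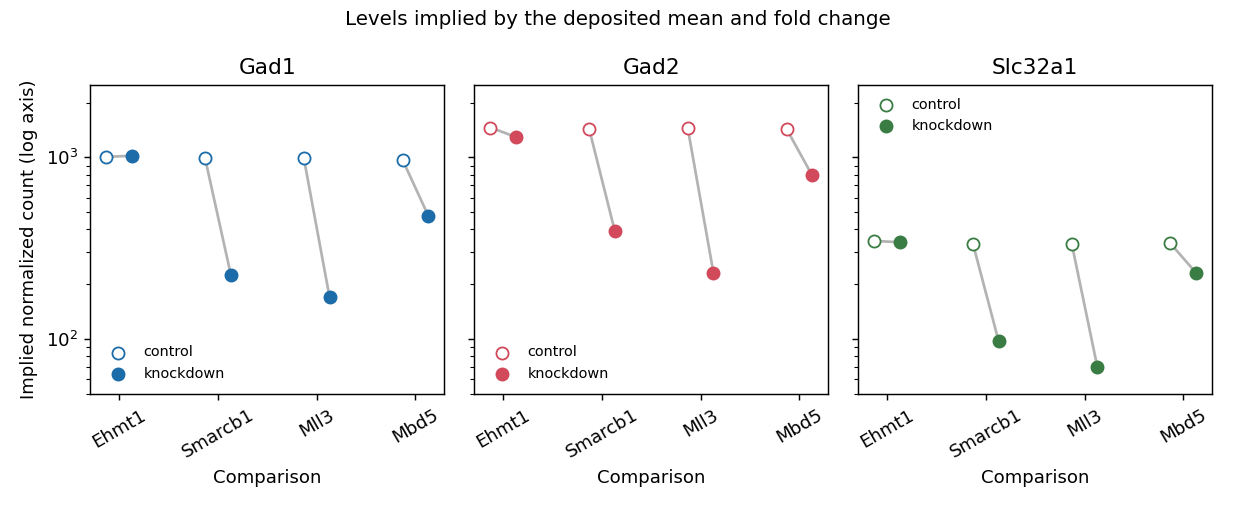
Normalized count (log axis) of each gene in the control (open circles) and the knockdown (filled circles) that the deposited mean and fold change imply, with the 4 tables on a common scale; no error is drawn. The open circles of a gene lie at nearly one height, which the choice of signs and the common scale favour. The filled circles are lowest for Mll3, at 170 (Gad1), 231 (Gad2) and 69.9 (Slc32a1).

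The order of the knockdowns was the same for each gene, with Mll3 lowest, then Smarcb1, then Mbd5, then Ehmt1. The comparisons share their control, so their values are set side by side and are not independent. The difference between knockdowns was not tested. The fold changes in different tables may not be on one scale. The highest standard error of a table in the authors' deposited tables ran from 0.29 (Ehmt1) and 0.31 (Mbd5) to 0.45 (Smarcb1) and 0.56 (Mll3). The medians were 0.23, 0.23, 0.28 and 0.33 in the same order. No gene, however few its counts, had a standard error above the highest of its table. Whether the fold changes were shrunk towards 0, and how strongly in each table, is not stated in the sources used here. The percentages of control, and the overlap of intervals between knockdowns, therefore hold only for the values as deposited.

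All 12 pairs of genes within a comparison had overlapping 95% intervals, which does not measure how far 2 genes differ. Of the 3, Slc32a1 had the fold change nearest to 0 for Mll3, Smarcb1 and Mbd5. Its log2 fold change differed from that of Gad1 by 0.28 for Mll3, 0.35 for Smarcb1 and 0.48 for Mbd5, each less than its own interval is wide. Gad1 had the largest fall for Smarcb1 and Mbd5, and Gad2 for Mll3. The fold changes of Gad1 and Gad2 were 0.26 apart for Smarcb1, 0.10 for Mll3, 0.17 for Mbd5 and 0.19 for Ehmt1 on the log2 scale. Errors of genes measured in the same libraries may be correlated, so no interval is given for these differences. Levels were not compared between genes, because transcript lengths were not used here.

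The place of the 3 genes among all genes of a table shows how far from the centre they lay. Ordered from the lowest fold change, Gad2 was number 29 of 15294 genes for Mll3, Gad1 number 39 and Slc32a1 number 102. For Smarcb1, Gad1 was number 53 of 15249, Gad2 number 106 and Slc32a1 number 129. For Mbd5, Gad1 was number 92 of 15619, Gad2 number 194 and Slc32a1 number 927, so that 5.93% of genes had a lower fold change than Slc32a1. For Ehmt1 the 3 genes lay in the body of the distribution, with 22.4% of 15419 genes lower than Gad2, 47.3% lower than Slc32a1 and 55.3% lower than Gad1.

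**Figure D3:**
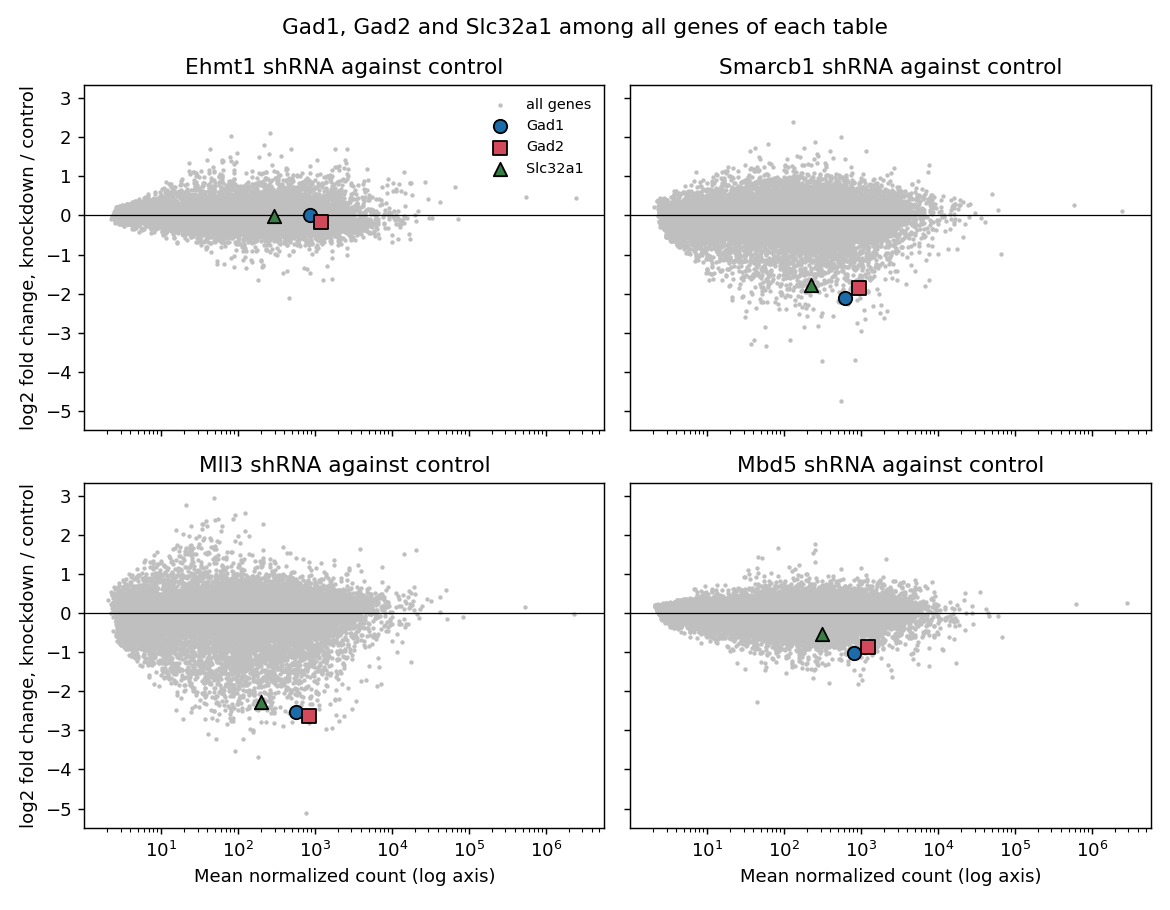
Log2 fold change, knockdown over control, against mean normalized count (log axis) for every gene of each table (grey) and for Gad1 (circle), Gad2 (square) and Slc32a1 (triangle). The 3 genes lie at the lower edge of the cloud for Smarcb1 and Mll3, below most genes for Mbd5, and in the middle of it for Ehmt1.

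Likeness of pattern was measured as the Euclidean distance between the 4 log2 fold changes of a pair of genes, over the 8901 genes whose mean normalized count reached 100 in all tables. Gad2 was the gene nearest to Gad1, and Gad1 the gene nearest to Gad2, of the 8900 other genes, at a distance of 0.38. The next nearest genes lay at 0.49 from Gad1 and 0.41 from Gad2. The median distance to other genes was 3.54 for Gad1 and 3.42 for Gad2. Since the middle gene of each table lay near 0, these medians mostly give the size of each gene's own falls. They are no yardstick for the likeness of Gad1 and Gad2. Slc32a1 came 8th in order of nearness to Gad1 (distance 0.66) and 5th to Gad2 (0.53). From Slc32a1, Gad2 was the 25th nearest and Gad1 the 49th. The places of Slc32a1 moved with the minimum count: at 50 and at 200 it was number 13 and number 5 from Gad1 and number 9 and number 2 from Gad2. The 4 fold changes behind each distance share the control libraries, and genes chosen for low values in the same tables start out near each other.

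The files do not pair other identifiers with names, so the neighbours can be given only as identifiers, and these 2 were picked after their values were seen as those with the smallest greatest distance to the 3 genes. ENSRNOG00000027871 was number 3 in nearness to Gad1, number 4 to Gad2 and number 4 to Slc32a1. With the signs of the authors' deposited tables turned as above, its log2 fold change was -2.30 for Mll3, -1.87 for Smarcb1, -0.72 for Mbd5 and 0.20 for Ehmt1, and it was called for Mll3 and Smarcb1. ENSRNOG00000006426 was number 2 in nearness to Gad1, number 6 to Gad2 and number 24 to Slc32a1. With the signs of the authors' deposited tables turned as above, its log2 fold change was -2.25 for Mll3, -1.75 for Smarcb1, -1.03 for Mbd5 and 0.16 for Ehmt1, and it was called in the first 3 of these.

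The mean normalized counts of all genes added up to 9963179 (Ehmt1) to 12264209 (Mbd5) per table. The identifier with the highest mean of a table held 21.4% to 24.5% of that sum. Whether it was the same identifier in each table was not looked at. Each table also has 4 non-gene rows, for reads not assigned to a gene. Only the row of reads outside annotated features ran in the order of the knockdowns, and it is given for that reason. With the signs of the authors' deposited tables turned as above, the log2 fold change of reads outside annotated features was -0.53 for Mll3 (SE 0.24), -0.47 for Smarcb1 (SE 0.20), -0.15 for Mbd5 (SE 0.21) and 0.11 for Ehmt1 (SE 0.19). The adjusted p-values of these 4 fold changes in the authors' deposited tables were 0.186, 0.122, 0.810 and 0.959. The part of these reads in the values of Gad1, Gad2 and Slc32a1 was not tested.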

How the data were processed

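RNA of 5 groups of rat cortical neurons was sequenced from both ends, from 500 ng of total RNA, per the labels' protocols. The authors deposited 4 comparison tables, with columns named as DESeq2 writes them, per the file headers. STAR 2.5.2b, DESeq2 and the build Rnor_6.0 are listed in the submitters' processing notes, with no role stated. The deposited mean was taken as a normalized count signal: counts divided by size factors and averaged over libraries. This is the meaning of its column name, baseMean, in DESeq2, and the file headers do not spell it out. The deposited fold change is on the log2 scale, per the file headers, and its standard error was taken to be on the same scale. The deposited Wald score equalled their quotient in every row, the deposited p-value its two-sided normal p, and the deposited adjusted p-value a Benjamini-Hochberg adjustment with the 4 non-gene rows included. Depth per library is unknown.

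Computed here, with Python 3.11.15, pandas 2.3.3 and SciPy 1.17.1, were the sign reading (genes with a mean of at least 200), implied levels (control share 0.5), 95% intervals (fold change ± 1.96 SE), ranks, distances and motif matches. The sign reading was tried on simulated counts of 14815 genes, 200 of them changed per knockdown, and recovered 4 of 4 signs. The simulation had a shared control and equal weights of control and knockdown built in. It therefore checks the calculation and not whether those assumptions hold in these data. No other control share was tried for the sign reading. The genes and lists were chosen with earlier results of these data known. The rule for named genes took the 3 genes, the 4 targeted genes, genes of fixed lists and the nearest genes with a symbol; without symbols only the first 3 could be named by it, and the 2 neighbours given as identifiers fall outside it. The RefSeq table gives 0 of its 47357 rows an Ensembl identifier, so the targeted genes and the lists of GABA receptors, transporters, interneuron and glial markers were not analysed here.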

Additional observations from a re-analysis of the deposited data

How the results depend on the processing

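The 12 fold changes (3 genes, 4 knockdowns) kept their side of the threshold at adjusted p-values under 0.01 and 0.1, and with p-values adjusted over all gene rows. Their direction could not change in those settings. After centring on the median of all genes they kept their direction, and the p-values were not computed again. The sign reading was the same at a minimum mean count of 50 (SD 0.034) and 1000 (SD 0.024). Directions follow from it. With positive read as higher in the control in all 4 tables, the Ehmt1 values become -0.018 (Gad1), 0.17 (Gad2) and 0.025 (Slc32a1). With positive read as higher in the knockdown in all 4, Gad1 becomes 2.12 (Smarcb1), 2.54 (Mll3) and 1.02 (Mbd5), Gad2 becomes 1.87, 2.64 and 0.85, and Slc32a1 becomes 1.78, 2.26 and 0.54. Both reversals follow from how those settings are built.

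Settings for implied levels and distances were added after the data were seen. A control share of 0.4 or 0.6 moved 8 of 12 implied control levels by more than 1 SE of the fold change would. With fold changes divided by the SD of their table, Gad2 was still the nearest gene to Gad1, and Gad1 was number 2 from Gad2. With a minimum count of 50 or 200 in place of 100, Gad1 and Gad2 were each other's nearest gene, while Slc32a1 was number 13 or 5 from Gad1 and number 9 or 2 from Gad2. From Slc32a1, Gad1 was then number 67 or 30 and Gad2 number 34 or 16. The planned counts over other GABA pathway genes were not run, because identifiers were not paired with symbols. No paired analysis was possible because the tables hold no single libraries and no replicate was left out.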
